A study of Mus musculus with 12 samples.

Results

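Aquaporins are membrane channels for water, and the 8 described here are *Aqp1*, *Aqp3*, *Aqp4*, *Aqp5*, *Aqp7*, *Aqp8*, *Aqp9* and *Aqp11*. They were taken by symbol from tables of 24340 gene entries each, and all 8 had an entry in both tables. The RNA-seq covered whole pulverized livers from 3 control mice and 3 *Hnf4a* cKO mice, as well as 3 control and 3 HNF4A EE samples of NIH 3T3 cells, a line of mouse embryonic fibroblasts. The cKO mice were adults with *Hnf4a* fl/fl alleles and *Alb-CreERT2*, a Cre recombinase that the albumin promoter drives in hepatocytes and that tamoxifen switches on, and their livers were taken after a week of tamoxifen. The control livers are labelled wild type, and the study's methods give them as *Hnf4a* fl/fl mice that lacked Cre and received no tamoxifen, whereas a supplementary legend gives them the genotype of the cKO mice without tamoxifen. Loss of HNF4A and the drug, and by the methods also the Cre, cannot be told apart in this comparison. The HNF4A EE cells had received a lentivirus that carries mouse *Hnf4a* and eGFP, the control cells the empty vector, and the labels put the RNA of this experiment at 72 h.

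HNF4A is a nuclear receptor that drives many hepatocyte genes. Classical aquaporins pass water alone, aquaglyceroporins pass glycerol and other small solutes as well, and a few distant relatives such as AQP11 reside mainly inside the cell. In hepatocytes, AQP8 lies in intracellular vesicles and in the canalicular membrane, where bile is formed, and AQP9 lies in the membrane that faces the blood and takes up glycerol for glucose synthesis. AQP1 is best known from red blood cells, kidney tubules, endothelium and bile duct cells.

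Levels are in FPKM, which divides the fragments counted for a gene by its exon length and by the size of the library. The authors' tables hold 1 FPKM per gene for each group of 3 samples and no value for a single mouse or culture, so the spread between samples is unknown, none of the differences could be tested, and the read depth is unknown too. Levels and differences are therefore descriptions of group values. Differences are given as the log2 ratio of FPKM + 1, which understates the change of genes at low FPKM. An entry was assessed when it had 1 FPKM or more in either group of its table, and it was called lower or higher at a log2 ratio of −0.5 or less or of 0.5 or more. *Hnf4a* itself had 275 FPKM in control and 144 FPKM in cKO livers, and 0.639 FPKM in control and 1758 FPKM in HNF4A EE cells. RNA from exons that Cre leaves in place can still count towards the value in the cKO livers. The part of such RNA was not tested, since the values are per gene and not per exon.

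Of the 6 hepatocyte markers looked at, *Alb* was listed at 0 FPKM in both liver groups while *Apoa1* had 9012 and 11880 FPKM, so a listed 0 in these tables can be a failed estimate. *Ttr* and *Asgr1* were called lower in the cKO livers, and the other assessed hepatocyte markers were called neither way. In the 3T3 cells the same markers lay between 0 and 0.186 FPKM in both groups. The fibroblast collagens *Col1a1* and *Col1a2* had 123 and 443 FPKM in control and 3.95 and 6.61 FPKM in HNF4A EE cells, and the part of this difference between the cultures in the aquaporin values was not tested. None of 8 genes that all cells use was listed at 0. The median log2 ratio over all assessed entries was −0.00653 in the livers and −0.00933 in the cells.

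Stretches of the promoters of *Aqp1*, *Aqp8* and *Aqp11* are shown because these genes were lower in the cKO livers and higher in the HNF4A EE cells. The sequences are from RefSeq on GRCm38.p6, the assembly of mm10, and each holds 200 bases, from 250 to 51 bases before the annotated start, 5′ to 3′ on the strand of the gene. They are chr6:55336049-55336248 on the plus strand for *Aqp1*, chr7:97738298-97738497 on the minus strand for *Aqp11* and chr7:123462044-123462243 on the plus strand for *Aqp8*, and none overlaps an annotated exon. Capitals mark matches to CAAAGNNCA, where N is any base, on either strand, a short form of the direct repeat that HNF4A is known to bind.
Aqp1: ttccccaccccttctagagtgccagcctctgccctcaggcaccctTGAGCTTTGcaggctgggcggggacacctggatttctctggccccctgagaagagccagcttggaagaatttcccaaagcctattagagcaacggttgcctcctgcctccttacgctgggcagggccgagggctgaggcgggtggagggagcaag
Aqp11: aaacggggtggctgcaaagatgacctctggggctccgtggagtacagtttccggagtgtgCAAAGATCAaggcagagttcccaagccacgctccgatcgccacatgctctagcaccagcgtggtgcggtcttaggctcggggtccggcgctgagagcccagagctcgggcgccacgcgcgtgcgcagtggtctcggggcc
Aqp8: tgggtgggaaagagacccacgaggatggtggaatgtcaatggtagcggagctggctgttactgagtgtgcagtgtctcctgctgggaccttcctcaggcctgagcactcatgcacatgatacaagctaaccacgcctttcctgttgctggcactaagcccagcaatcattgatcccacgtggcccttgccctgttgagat

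The *Aqp11* match reads CAAAGATCA on the strand of the gene, from 190 to 182 bases before the start. The *Aqp1* match reads CAAAGCTCA on the opposite strand and lies from 205 to 197 bases before the start. The *Aqp8* window held no match. RefSeq windows from 250 bases before to 50 after the start were found for 7 of the 8 aquaporins, 9 windows in all, and 2 of the 9 held the motif, against 6.36% of all 32851 windows. The stricter forms CAAAGTCCA and CAAAGGTCA, which CAAAGNNCA includes, were in none of the 9 and in 0.475% and 0.478% of all windows. Such a match describes the letters only, since neither HNF4A binding nor histone marks were part of the tables analysed here.

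In control livers 4 aquaporins carried nearly all of the aquaporin RNA, and all 4 were called lower in the cKO livers. *Aqp9* led with 184 FPKM, followed by *Aqp1* at 63.1, *Aqp8* at 58.6 and *Aqp11* at 48.2 FPKM. The other 4 lay at 0.640 FPKM or less in both liver groups and were not assessed. Of all 11275 assessed liver entries, 19.1% were called lower and 15.5% higher. Without a spread between livers it cannot be said which neighbours in this order differ.

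*Aqp11*, which encodes a channel of the endoplasmic reticulum whose loss in mice gives polycystic kidneys, had 48.2 FPKM in control and 3.40 FPKM in cKO livers. This is a 14.2-fold difference and a log2 ratio of −3.48, and 1.30% of the assessed entries had a lower ratio. *Aqp8*, which encodes a channel for water, ammonia and hydrogen peroxide, had 58.6 FPKM in control and 5.14 FPKM in cKO livers. It was 11.4-fold lower, with a log2 ratio of −3.28, and 1.46% of the entries had a lower ratio. Both genes lie on chromosome 7, *Aqp11* from 97726379 to 97738247 on the minus strand and *Aqp8* from 123462294 to 123468003 on the plus strand, so they are not neighbours.

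*Aqp9*, the aquaglyceroporin of hepatocytes, had 184 FPKM in control and 52.2 FPKM in cKO livers. It was 3.53-fold lower, with a log2 ratio of −1.80, and 3.99% of the entries had a lower ratio. It lies on chromosome 9 from 71110659 to 71163289, on the minus strand. With 52.2 FPKM it was still the most abundant aquaporin of the cKO livers. Neutrophils can also express *Aqp9*, and the 4 neutrophil markers with an entry summed to 3.62 FPKM in control and 38.9 FPKM in cKO livers. All 3 assessed ones were called higher. Of these, *Retnlg* was listed at 0 in control and at 3.40 FPKM in cKO livers, so its call was fixed by the filter. The part of neutrophils in the cKO value of *Aqp9* was not tested.

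*Aqp1*, a water channel of many epithelia and of endothelium, had 63.1 FPKM in control and 36.03 FPKM in cKO livers. It was 1.75-fold lower, with a log2 ratio of −0.79, and 11.8% of the entries had a lower ratio, so its difference was the smallest of these 4. The gene spans 55336299 to 55348555 on chromosome 6, on the plus strand. Since livers are a mixture, fewer cells of a type and less RNA per cell cannot be told apart. The 8 endothelial markers summed to 78.9 FPKM in control and 61.0 FPKM in cKO livers, and 2 of them were called lower and 1 higher. Over all assessed liver entries 19.1% were called lower and 15.5% higher. The 8 cholangiocyte markers summed to 29.1 and 33.7 FPKM. Most of both sums came from *Spp1*, which had 25.98 FPKM in control and 21.2 FPKM in cKO livers and was called neither way. *Sox9* went in the other direction, with 0.536 and 6.77 FPKM, so the sums say little about the markers other than *Spp1*. Of the 5 assessed cholangiocyte markers, 3 were called higher. These 3, *Krt19*, *Epcam* and *Sox9*, were assessed only through the cKO value, so a lower call was not open to them. The defining channel gene *Cftr* had 0.0507 and 0.0583 FPKM. Of 6 erythroid markers with an entry, 3 were assessed and 2 called higher, with sums of 37.3 and 56.8 FPKM. The third, *Alas2*, was called neither way, with 10.6 and 9.56 FPKM. The globin gene *Hbb-bs* had 0.00381 and 0.00245 FPKM beside 14.1 and 26.3 FPKM for *Hbb-bt*, and *Hba-a1* had no entry. Whether the *Hbb-bs* values are failed estimates was not tested, so the sums are not read as a measure of red blood cells. The part of these cells in the difference of *Aqp1* was not tested.

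The aquaporins at low FPKM in liver are those that other tissues use. *Aqp4*, the main water channel of astrocytes, had 0.640 FPKM in control and 0.174 FPKM in cKO livers. *Aqp5*, a water channel of glands and lung, had 0.210 and 0.0887 FPKM. *Aqp3*, an aquaglyceroporin of skin and kidney, had 0.0284 and 0.0511 FPKM, and *Aqp7*, through which fat cells release glycerol, had 0.0278 and 0.0435 FPKM. These values are too close to 0 for a difference to be read. The 6 adipocyte markers summed to 13.0 FPKM in control and 7.77 FPKM in cKO livers, nearly all of it from *Fabp4*, the 1 assessed marker, which had 12.6 and 7.61 FPKM and was called lower, while the defining markers *Adipoq*, *Lep* and *Plin1* were at 0.0424 FPKM or less.

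**Figure D1:**
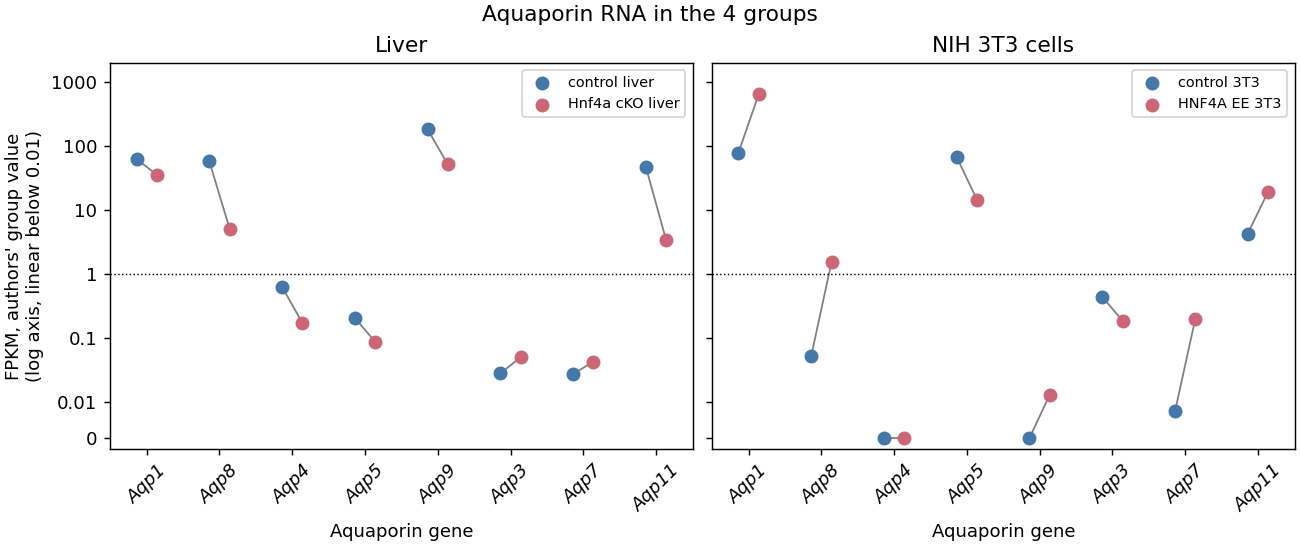
FPKM of the 8 aquaporins (log axis, linear below 0.01), with 1 point for the authors' value of each group, a grey line joining the groups of a table and a dotted line at 1 FPKM. In the livers *Aqp9*, *Aqp1*, *Aqp8* and *Aqp11* lie above the dotted line in both groups and are all lower in the cKO livers, and in the 3T3 cells *Aqp1* reaches 658 FPKM with HNF4A.

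Summed over the 8 genes, aquaporin RNA came to 355 FPKM in control and 97.1 FPKM in cKO livers. The sum over all 24340 entries differed too, with 601955 FPKM in control and 458704 FPKM in cKO livers. *Aqp9* made up 51.9% of the aquaporin sum in control and 53.7% in cKO livers. The share of *Aqp1* was 17.8% in control and 37.1% in cKO livers. Those of *Aqp8* and *Aqp11* were 16.5% and 13.6% in control and 5.29% and 3.50% in cKO livers. The order of the 4 genes by level was the same in both groups.

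In control 3T3 cells the aquaporin RNA came from *Aqp1*, at 80.0 FPKM, and *Aqp5*, at 67.8 FPKM, with *Aqp11* at 4.34 FPKM. With HNF4A, *Aqp1*, *Aqp11* and *Aqp8* were called higher and *Aqp5* lower. *Aqp3*, *Aqp4*, *Aqp7* and *Aqp9* were under 1 FPKM in both groups and were not assessed. Of all 10766 assessed entries of this table, 23.1% were called higher and 22.9% lower.

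*Aqp1* had 80.0 FPKM in control and 658 FPKM in HNF4A EE cells, an 8.22-fold difference with a log2 ratio of 3.02. Only 0.604% of the assessed entries had a higher ratio. In the control cells 1120 entries had a higher FPKM than *Aqp1*, and in the HNF4A EE cells 78 did. Of the markers of cells that express *Aqp1* in the body, the 8 endothelial ones summed to 0.862 and 1.04 FPKM and the erythroid ones to 0.00802 and 0.00356 FPKM in control and HNF4A EE cells. The 8 cholangiocyte markers summed to 438 and 50.6 FPKM, mainly from *Spp1*, which had 425 and 37.7 FPKM and was called lower, and from *Sox9*, with 13.3 and 12.1 FPKM, while the defining marker *Epcam* was listed at 0 in both groups. Their part in the value of *Aqp1* was not tested.

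*Aqp11* had 4.34 FPKM in control and 19.6 FPKM in HNF4A EE cells, a 4.51-fold difference with a log2 ratio of 1.95, and 2.17% of the entries had a higher ratio. *Aqp8* had 0.0532 FPKM in control and 1.58 FPKM in HNF4A EE cells, with a log2 ratio of 1.29. It was assessed only because of its value in the HNF4A EE cells, so a call in any other direction was not open to it. Its level with HNF4A stayed low, with 10074 entries above it. *Aqp9*, the most abundant aquaporin of the livers, was listed at 0 in control cells and at 0.0133 FPKM in HNF4A EE cells.

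*Aqp5* had 67.8 FPKM in control and 14.6 FPKM in HNF4A EE cells. It was 4.66-fold lower, with a log2 ratio of −2.15, and 0.938% of the assessed entries had a lower ratio. The gene lies on chromosome 15 from 99591028 to 99594829, on the plus strand, between *Aqp2*, 6482 bases before it, and *Aqp6*, 6570 bases after it. Both neighbours, water channels known from the kidney, were at or near 0, with *Aqp2* at 0.0139 and 0.0278 FPKM in control and HNF4A EE cells and *Aqp6* listed at 0. *Aqp3* had 0.448 and 0.189 FPKM, *Aqp7* had 0.00747 and 0.203 FPKM, and *Aqp4* was listed at 0 in both groups.

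**Figure D2:**
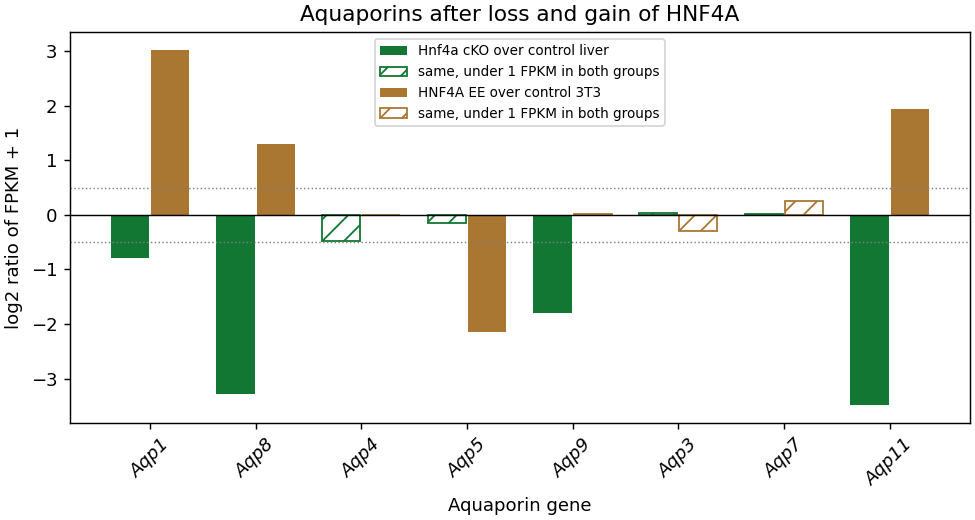
Log2 ratio of FPKM + 1 for each aquaporin in cKO over control livers (green) and HNF4A EE over control 3T3 cells (brown), with 1 bar per table, hatched where the gene was under 1 FPKM in both groups, and dotted lines at −0.5 and 0.5. *Aqp1*, *Aqp8* and *Aqp11* have bars below −0.5 in the livers and above 0.5 in the cells, *Aqp9* has a long bar in the livers only, and *Aqp5* one in the cells only.

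The sum over the 8 genes was 153 FPKM in control and 694 FPKM in HNF4A EE cells. Over all 24340 entries the sum was 528286 FPKM in control and 478182 FPKM in HNF4A EE cells. *Aqp1* made up 52.4% of the aquaporin sum in control and 94.8% in HNF4A EE cells. The share of *Aqp5* was 44.4% in control and 2.10% in HNF4A EE cells, and *Aqp11* stayed at 2.84% and 2.82%.

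Loss of HNF4A in liver and its gain in fibroblasts were set side by side for the 3 aquaporins assessed in both tables, *Aqp1*, *Aqp8* and *Aqp11*. All 3 were lower in the cKO livers and higher in the HNF4A EE cells, but the call of *Aqp8* in the cells was fixed by the filter, and with 1 FPKM required in both groups *Aqp1* and *Aqp11* are the 2 that remain higher there. Of the 9239 entries assessed in both tables, 489 or 5.29% had this pattern, which is 36.1% of the entries lower in the cKO livers and 23.4% of those higher in the HNF4A EE cells. The tables share no samples, but they were normalized separately, so a level in liver and a level in cells are not compared. *Aqp1* had log2 ratios of −0.79 in the livers and 3.02 in the cells, *Aqp11* had −3.48 and 1.95, and *Aqp8* had −3.28 and 1.29. The order in the cells depends on the pseudocount, since with 0.1 in place of 1 *Aqp8* had 3.46 and *Aqp1* 3.04.

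**Figure D3:**
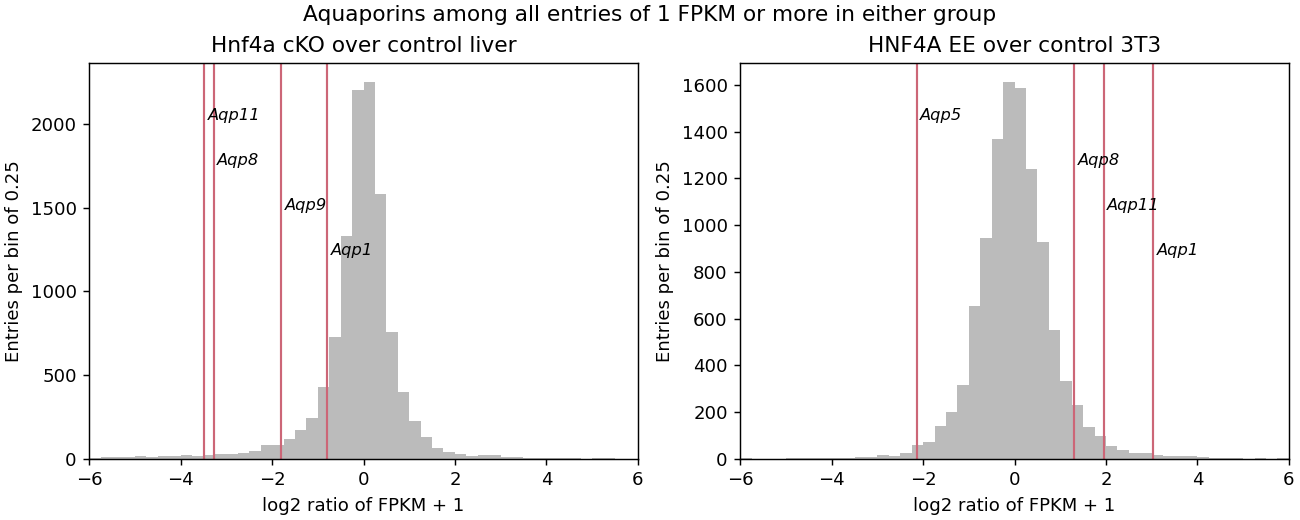
Number of assessed entries per bin of 0.25 of the log2 ratio of FPKM + 1 (grey), in the livers and the 3T3 cells, with a red line at each assessed aquaporin; a few entries lie beyond −6 and 6. In the livers all 4 lines are left of 0, with *Aqp11* at −3.48 and *Aqp8* at −3.28 in the thin left tail, and in the cells *Aqp1* at 3.02 lies in the right tail and *Aqp5* at −2.15 in the left.

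The mouse has further aquaporin genes, and of these *Mip*, *Aqp2*, *Aqp6* and *Aqp12* were looked up. None reached 1 FPKM in any of the 4 groups, and the highest value was 0.0278 FPKM. *Aqp12*, known from the pancreas, had 0.0235 and 0.0236 FPKM in control and cKO livers.

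Genes that handle glycerol after AQP9 has let it in were mostly lower in the cKO livers. Of 17 listed genes 16 had an entry and 15 were assessed, of which 10 were lower, 1 was higher and 4 were called neither way, against 19.1% lower and 15.5% higher over all assessed entries. The median log2 ratio was −0.91 against −0.00653 over all assessed entries. This list and those that follow were chosen with earlier results of these data known, so such counts describe the lists only. *Gyk*, the glycerol kinase that traps glycerol in the cell, had 38.8 FPKM in control and 9.80 FPKM in cKO livers, a log2 ratio of −1.88. *Dgat2*, which completes triglycerides, had 441 and 67.5 FPKM, and *G6pc*, which releases glucose, had 322 and 58.6 FPKM. *Pck1*, an enzyme of gluconeogenesis, had 1149 and 473 FPKM. The higher one was *Gpd2*, the mitochondrial glycerol phosphate dehydrogenase, with 11.4 and 17.1 FPKM. It is named for its direction and is not among the 4 genes with the largest ratios.

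In the 3T3 cells 9 genes of this list were assessed, of which 6 were higher and 1 was lower, against 23.1% higher and 22.9% lower over all assessed entries. The median log2 ratio was 0.97 against −0.00933. *Dgat2* had 2.33 FPKM in control and 12.4 FPKM in HNF4A EE cells. *Pnpla2*, the lipase that starts triglyceride breakdown, had 13.7 and 49.2 FPKM, *Gpd2* had 18.3 and 38.9 FPKM and *Gpd1l*, a relative of glycerol phosphate dehydrogenase, had 10.4 and 22.0 FPKM. *Gyk* was called neither way, with 23.6 and 20.3 FPKM. The gene called lower was *Tpi1*, a glycolytic enzyme, with 461.5 and 241 FPKM. The genes of gluconeogenesis *Pck1*, *G6pc* and *Fbp1* were at 0.0141 FPKM or less in both groups. *Gyk*, *Tpi1* and these 3 are named after their values in the cells were seen.

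Genes that work beside AQP8 and AQP1 in bile formation were looked at next. Of 12 genes of canalicular and ductular secretion, 9 were assessed, 3 were lower, 2 were higher and 4 were called neither way in the cKO livers, against 19.1% lower and 15.5% higher over all assessed entries, and the median log2 ratio was 0.26 against −0.00653. *Abcb11*, the bile salt export pump of the canalicular membrane, had 154 FPKM in control and 369 FPKM in cKO livers. The other gene called higher, *Ano1*, had 0.463 FPKM in control and 1.10 FPKM in cKO livers. It was assessed only through the cKO value, so a lower call was not open to it, and it is named because of this limit. *Slc10a2*, which takes bile acids back up from bile, had 11.8 and 1.56 FPKM. The cholesterol exporters *Abcg5* and *Abcg8* had 77.0 and 48.9 FPKM and 47.9 and 24.0 FPKM. In the 3T3 cells 3 of the 12 were assessed and 1 was called, *Abcc2*, an organic anion pump, which had 0.00998 FPKM in control and 1.49 FPKM in HNF4A EE cells. Like *Aqp8* it was assessed only through the latter value, and it is named after its value was seen. *Slc4a2*, the anion exchanger of bile duct cells, was called neither way, with 19.3 and 15.3 FPKM.

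**Figure D4:**
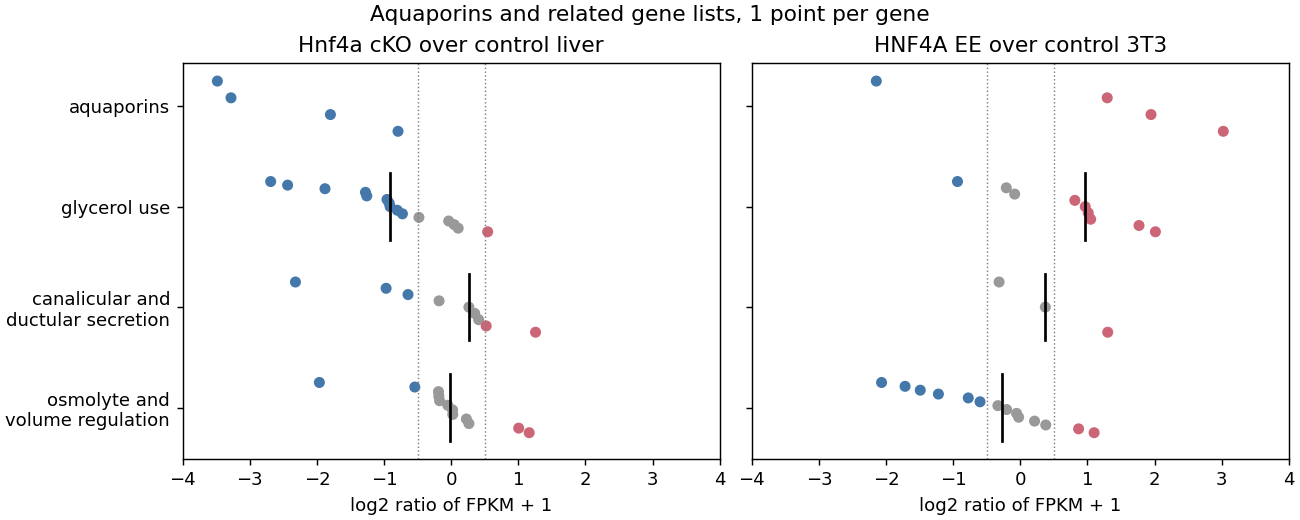
Log2 ratio of FPKM + 1 of each assessed gene of 4 lists (rows) in the livers and the 3T3 cells, with 1 point per gene in blue where called lower, red where called higher and grey where called neither way, a black bar at the median of each related list, and dotted lines at −0.5 and 0.5. The glycerol list has its median at −0.91 in the livers and 0.97 in the cells, and the medians of the 2 other related lists lie between −0.5 and 0.5. The lists were chosen with earlier results of these data known.

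Entries with the most similar levels to an aquaporin were sought over the 4 group values of log2(FPKM + 1), by the largest of the 4 differences. For *Aqp9* these were *Ctsh*, *Cxcl12* and *Cyp4a10*, with largest differences of 0.165, 0.222 and 0.223. *Ctsh*, for example, had 205 and 46.4 FPKM in control and cKO livers and 0 and 0.0237 FPKM in the 3T3 cells. For *Aqp5* they were *Ccl7*, *Fam64a* and *Sh3kbp1*, with differences from 0.238 to 0.509. The nearest entries of the 3 aquaporins that were lower in one table and higher in the other were less close, *Mfsd2a* for *Aqp8* at 0.823, *Faah* for *Aqp11* at 0.847 and *Nfe2l2* for *Aqp1* at 0.908. Close matches are easier to reach for *Aqp9*, near 0 in both cell groups, and for *Aqp5*, near 0 in both liver groups. In the cells 7792 entries were listed at 0 in both groups, and in the livers 7143 were. *Nfe2l2* differed from *Aqp1* in direction in the livers, with 33.7 FPKM in control and 57.8 FPKM in cKO livers. *Faah* had 55.2 and 2.36 FPKM in control and cKO livers and 5.29 and 10.45 FPKM in control and HNF4A EE cells. With 4 group values this is a description of levels only.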

How the data were processed

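RNA was extracted from pulverized livers and 3T3 cells. STAR (2.5.0b) mapped the reads to mm10 and Cufflinks (2.2.1) made the FPKM, versions being those in the submitters' processing notes. The sources used here give no annotation, strand setting or scaling method. In the deposited tables each gene has 1 FPKM per group, the authors' value for 3 samples. Their columns of fold changes, test statistics, p-values and q-values hold the authors' own comparison and were not used. Samples were grouped by title.

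FPKM is relative to the library, so a change of abundant genes can shift others. Log2 ratios of FPKM + 1 were computed with Python 3.11.15, pandas 2.3.3 and NumPy 2.4.6, and checked on simulated data. The cut of 0.5 is that of the study's methods. Members and gene lists were chosen with earlier results of these data known, and the promoter motifs after the values were seen. All members are named, with up to 4 genes per list that have the largest ratios and 5 FPKM or more in either group, and the 3 entries most like each member of 1 FPKM or more were found. Exceptions are said where they are named, and cell type markers were named without this rule. Coordinates are those of the tables, counted from 1. Alternatives were other pseudocounts, cuts, floors, centring and entries. Depth is unknown.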

Additional observations from a re-analysis of the deposited data

How the results depend on the processing

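The number of aquaporins called in each direction stayed within 1.5 times under the alternatives run. With a cut of 1, *Aqp1* was no longer called in the livers, leaving 3 lower, and with 1 FPKM required in both groups *Aqp8* was not assessed in the cells, leaving 2 higher. The background shares changed more. With a cut of 1 they were 8.89% lower and 5.25% higher in the livers, and 8.08% lower and 9.36% higher in the cells. Without a filter on low FPKM they were 9.10% and 7.71% in the livers and 10.3% and 10.8% in the cells. Of 24 log2 ratios of called aquaporins under another pseudocount, none or centring on the median, 0 changed sign and 22 moved by less than 0.5. The other 2 were those of *Aqp8* in the cells, 3.46 with a pseudocount of 0.1 and 4.90 with none. No paired analysis was possible because the tables hold 1 value per group, and for the same reason no replicate could be left out. Low genes are limited by the unknown depth.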

Other observations

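*Rhbg*, an ammonia channel of hepatocytes around the central vein, had 11.1 FPKM in control and 4.08 FPKM in cKO livers, a log2 ratio of −1.25, and was the 1 assessed gene of 5 urea and ammonia channels. Of 12 assessed genes of osmolyte and volume regulation, 2 were lower and 2 higher in the cKO livers and 8 were called neither way, close to the 19.1% lower and 15.5% higher over all assessed entries. The median log2 ratio was −0.02 against −0.00653. *Slc6a12*, the betaine transporter, had 57.3 and 13.9 FPKM in control and cKO livers. *Akr1b3*, which makes sorbitol, had 2.24 and 6.24 FPKM, and *Stk39*, a kinase that acts on ion transporters, had 2.30 and 5.63 FPKM. *Clcn3*, a chloride transporter, was called neither way, with 12.4 and 15.1 FPKM.

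In the 3T3 cells 14 genes of the same list were assessed, of which 6 were lower and 2 higher in HNF4A EE cells, against 22.9% lower and 23.1% higher over all assessed entries. The median log2 ratio was −0.27 against −0.00933. *Lrrc8c*, a subunit of the volume-regulated anion channel, had 15.0 FPKM in control and 2.82 FPKM in HNF4A EE cells, while its relative *Lrrc8d* had 16.3 and 35.99 FPKM. *Slc12a2*, a cotransporter of sodium, potassium and chloride, had 26.8 and 7.45 FPKM, *Slc5a3*, the myo-inositol transporter, 11.7 and 3.53 FPKM, and *Stk39* 12.3 and 4.71 FPKM. *Lrrc8d* is named after its values were seen.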
